A study of Mus musculus with 288 samples.

Results

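Among small-intestinal cells that carried transcript for pregnancy zone protein (Pzp), cells with abundant neurotensin (Nts) mRNA were compared with cells with little or none. Members were single cells with at least 20000 reads on mouse genes, at most 20% of these on mitochondrial (mt-) genes and Pzp at 100 CPM or more, where CPM is the reads of a gene scaled to a total of 1000000 mouse gene reads per cell. Nts-high cells had Nts at 10000 CPM or more and Nts-low cells had Nts under 1000 CPM. Of 288 sequenced cells, 250 passed the depth and mitochondrial limits, 65 of these were Pzp-positive, and 56 were members, 9 Nts-high and 47 Nts-low. The 9 Pzp-positive cells between the Nts limits were left out.

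The cells came from GLU-Venus mice on a C57BL6 background, in which the proglucagon promoter drives the yellow fluorescent protein Venus, so that cells with an active proglucagon promoter could be sorted. The labels name 3 untreated male mice aged 20 to 21 weeks, and the top 10 cm of small intestine was used. Single cells were sorted into wells and made into full-length cDNA libraries, which were sequenced in 3 library pools of 96 cells each. Every member shares this genotype, sex, tissue and absence of treatment. The labels give each cell's pool but not its mouse or its Venus fluorescence; non-fluorescent control cells were sorted too, for the shallow pools, and could not be told apart here. The 3 pools were taken as replicates, each as 1 mouse, and p-values measure the spread between them.

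Neurotensin is a peptide released by enteroendocrine cells of the gut epithelium in response to fat, and acts on gut motility, secretion and lipid absorption. Enteroendocrine cells commonly make several hormones at once, and the mixture differs along the gut and with the age of the cell on the villus. Pzp encodes a secreted protease inhibitor of the alpha-2-macroglobulin family, best known from plasma and liver. Proglucagon (Gcg) is the precursor of the glucagon-like peptides.

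Nts lies on the minus strand of mouse chromosome 10 (mm10, 102481756 to 102490486), and Gcg, the gene that passed the test below, on the minus strand of chromosome 2 (62474530 to 62483650). Pzp lies on the minus strand of chromosome 6 (128483567 to 128526720), where transcript Gm10069 overlaps it on the other strand. The promoter windows of Nts and Gcg are printed because Nts divides the cells and Gcg differed between the sides. They run from 250 bases before to 50 after the RefSeq start site, 5′ to 3′, in build GRCm38.p6 at chr10:102490369-102490668 and chr2:62483604-62483903. Capitals mark matches, on either strand, to the cyclic AMP response element type letters TGACNTCA, the AP-1 type letters TGANTCA and the TATA letters TATAAA.
Nts: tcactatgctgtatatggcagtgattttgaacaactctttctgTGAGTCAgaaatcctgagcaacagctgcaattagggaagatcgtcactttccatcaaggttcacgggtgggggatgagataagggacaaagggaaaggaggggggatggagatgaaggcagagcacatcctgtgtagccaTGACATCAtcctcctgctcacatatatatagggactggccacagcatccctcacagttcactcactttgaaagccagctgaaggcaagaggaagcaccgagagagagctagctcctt
Gcg: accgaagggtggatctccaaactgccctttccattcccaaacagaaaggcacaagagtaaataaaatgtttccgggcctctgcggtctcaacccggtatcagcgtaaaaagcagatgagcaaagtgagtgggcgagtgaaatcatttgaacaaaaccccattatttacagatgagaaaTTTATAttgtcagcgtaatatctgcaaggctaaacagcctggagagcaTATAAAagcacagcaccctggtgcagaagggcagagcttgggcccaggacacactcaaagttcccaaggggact
The Nts window holds the AP-1 type letters from position -207 and the cyclic AMP response element type letters from position -67, relative to the start. The Gcg window holds TATA letters at -24 and, on the other strand, at -72, and neither of the other motifs. Of 32851 RefSeq promoter windows of this length, 8.83% hold TGACNTCA, 7.81% hold TGANTCA and 13.6% hold TATAAA. A match is a description of the letters and was not related to any measurement of binding.

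The levels that members were chosen by, Nts and Pzp, are given first, as a description with no test. In pool SLX-11175 the 3 Nts-high cells had Nts at 27217, 132707 and 346956 CPM. In pool SLX-11179 they had 12198, 22215 and 40360 CPM, and in pool SLX-9703 they had 11439, 15789 and 22203 CPM. Pool SLX-11175 therefore held the 2 cells with the most Nts, and the other 7 cells lay within 11439 to 40360 CPM. The 47 Nts-low cells ranged from 0 to 568 CPM with a median of 39.1 CPM, and 3 of them had no Nts read. On each side of the limits, the lowest Nts-high cell stood at 11439 CPM against 9259 CPM for the highest cell between the limits, and the highest Nts-low cell at 568 CPM against 1184 CPM for the lowest cell between them. The lowest Pzp level of a member was 115 CPM, and the highest level of a cell just under the limit was 92.2 CPM.

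Pzp itself lay between 123 and 1447 CPM (median 749) in the Nts-high cells and between 115 and 2538 CPM (median 906) in the Nts-low cells, so the sides overlapped. The 3 Nts-high cells of pool SLX-11175 had Pzp at 123, 277 and 331 CPM, all below the 643 CPM of the lowest Nts-high cell in the other pools. Across the 9 Nts-high cells the order of Nts ran opposite to that of Pzp (Spearman's rho -0.88), of Tph1 (-0.80) and of Chgb (-0.77), and alongside that of Chga (0.87) and Gip (0.72). The other 9 genes set beside Nts in this way lay between -0.53 (Cck) and 0.37 (Tbx3). These 9 points share 3 pools of unequal depth and a common total of reads per cell, and the values are a description only.

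**Figure D1:**
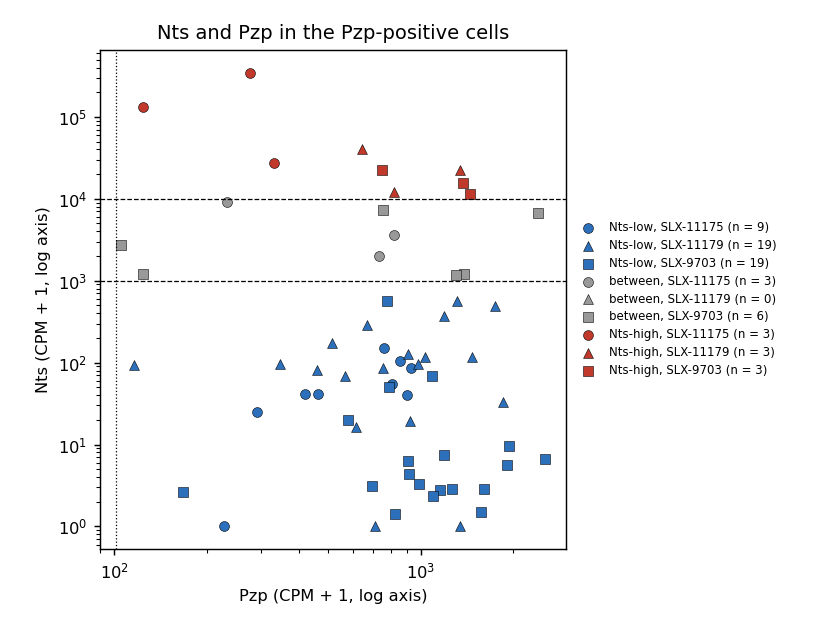
Nts against Pzp (both CPM + 1, log axes) in the 65 Pzp-positive cells; colour gives the side, symbol the pool, and dashed and dotted lines the Nts and Pzp limits. The 2 cells with the most Nts belong to pool SLX-11175 and have Pzp at 123 and 277 CPM.

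The Nts-high members had 68585 to 135492 mouse gene reads in pools SLX-11175 and SLX-11179 and 1647261 to 2313047 in pool SLX-9703. Nts-low members had 22337 to 177445 reads in those first pools and 1072514 to 3733809 in the third. Every member had reads for Chgb and Neurod1, an endocrine granin and an endocrine transcription factor, and Chga was read in 9 of 9 Nts-high and 39 of 47 Nts-low cells. No 2 cells had identical counts. Reads of each pool and side were summed, giving 6 sums. In the Nts-high sums Nts took between 1.59% and 15.4% of all reads, which lowers the CPM of other genes in proportion; all sums below are in CPM scaled by trimmed mean of M values (TMM), which estimates library scale from most genes.

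Gcg was lower in Nts-high cells in the sums of each pool, while single cells of the sides overlapped. In single cells, Gcg was 11.03, 190 and 935 CPM in the Nts-high cells of pool SLX-11175, 14.8, 42.03 and 48.5 CPM in those of pool SLX-11179 and 141, 259 and 531 CPM in those of pool SLX-9703. The Nts-low cells had lowest, median and highest Gcg of 53.6, 901 and 32722 CPM in pool SLX-11175, of 22.9, 190 and 1636 CPM in pool SLX-11179 and of 37.1, 324 and 9545 CPM in pool SLX-9703. The Nts-high median was the lower in each of the 3 pools, the sides overlapped in each, and no Nts-high cell reached 1000 CPM. In the sums Gcg was 444, 32.5 and 261 CPM on the Nts-high side (246 ± 206, SD, n = 3) and 4859, 433 and 1761 CPM on the Nts-low side (2351 ± 2271, n = 3). Gcg was 9.67-fold lower in Nts-high cells (log2 fold change -3.27, SE 0.33, edgeR adjusted p = 0.000107), lower in 3 of 3 pools.

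A few cells carried much of the Gcg on the Nts-low side. The cell with the most Gcg reads held 70.5% of the Nts-low Gcg reads in pool SLX-11175, 20.8% in pool SLX-11179 and 37.3% in pool SLX-9703. Some Gcg-rich Nts-low cells lay nearer the Pzp limit. Cells 10 and 20 of pool SLX-11175 had Gcg at 32722 and 6113 CPM and Pzp at 291 and 226 CPM. Cell 95 of pool SLX-9703 had Gcg at 7924 CPM and Pzp at 166 CPM. Cells 28 and 92 of that pool, with Gcg at 9545 and 6423 CPM, had Pzp at 911 and 693 CPM. With Pzp at 500 CPM or more, Gcg still passed in edgeR. That limit leaves no Nts-high cell in pool SLX-11175, so the whole pool is absent from that fit. The edgeR call rested in part on single cells. It was lost without cell 10 of pool SLX-11175, the Nts-low cell with the most Gcg (log2 fold change -2.69, adjusted p = 0.0972), and without cell 82 of pool SLX-9703, a Nts-high cell (-3.03, adjusted p = 0.0517). It stood when any other Nts-low or Nts-high cell, or any 1 pool (-3.57 to -3.19), was left out. The call was also lost when pools were not blocked (log2 fold change -3.27, adjusted p = 0.704), when cells needed 50000 reads (-2.65, adjusted p = 0.188), and when the median cell replaced the sum (log2 fold change -1.57, limma adjusted p = 0.697). The limit of 50000 reads leaves out cell 10 of pool SLX-11175 among others, so that loss is not separate from the loss without this cell. Over all pools the median cell had 141 CPM of Gcg on the Nts-high and 324 CPM on the Nts-low side.

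**Figure D2:**
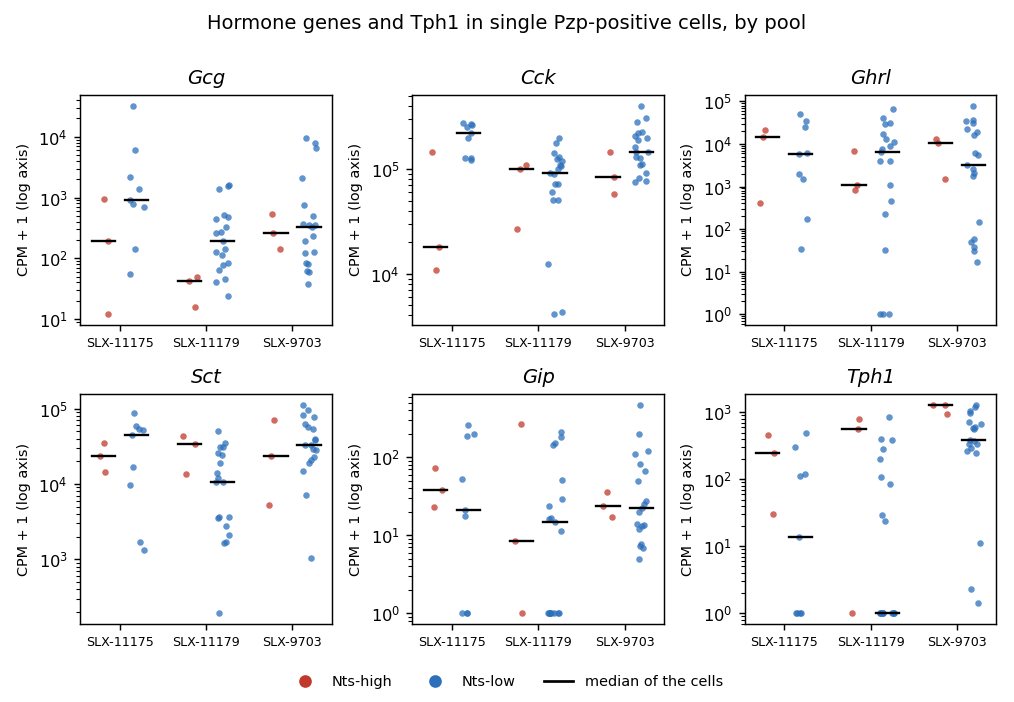
Levels (CPM + 1, log axis) of Gcg, Cck, Ghrl, Sct, Gip and Tph1 in single Nts-high (red) and Nts-low (blue) Pzp-positive cells of each pool; black bars are medians of the cells. The highest Gcg values, up to 32722 CPM, are Nts-low cells, while both colours overlap in every panel.

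Across 6822 genes tested, Nts and Pzp left out, 1 passed an adjusted p of 0.05 (0.0147%) by the edgeR quasi-likelihood F test on the 6 sums, in which each pool has its own term, and this was Gcg. No gene was higher in Nts-high cells by that test; at an unadjusted p under 0.05, 56 genes were higher (0.821%) and 161 lower (2.36%). DESeq2 called 6 genes higher and 9 lower (0.22% of genes), among them Adgrd1, Exo5, Ofd1 and Pgc higher and Gcg, Hook1, Cps1, Idh2, Echdc2 and Ptger3 lower. The median log2 fold change over all genes tested was -0.24.

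**Figure D3:**
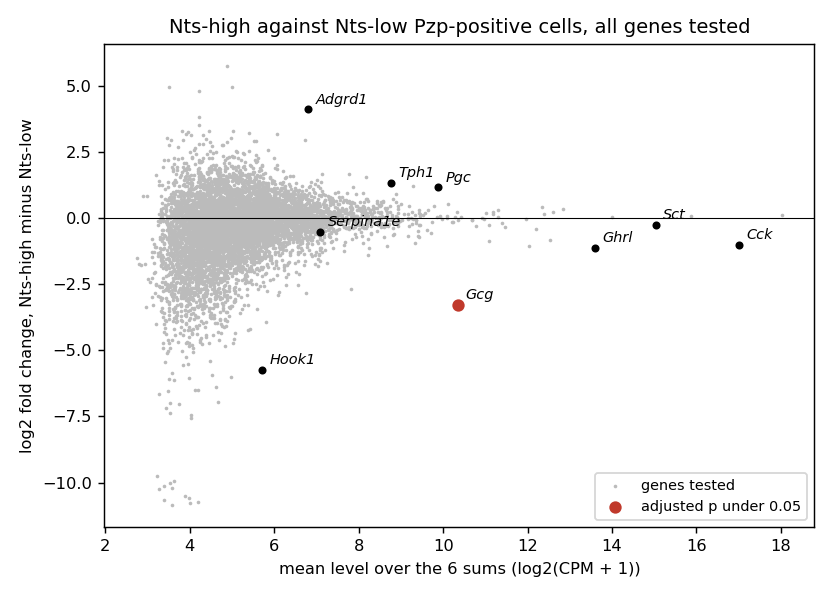
Log2 fold change (Nts-high minus Nts-low, edgeR) against the mean level over the 6 sums (log2(CPM + 1)) for the 6822 genes tested. Gcg (red) is the single gene past an adjusted p of 0.05, and the points near -10 are weakly expressed genes with few or no reads in the Nts-high sums.

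Adgrd1, an adhesion G protein-coupled receptor on the plus strand of chromosome 5 (mm10, 129096750 to 129204599), reached its highest levels in some of the Nts-high cells. The 3 Nts-high cells had 0, 701 and 758 CPM in pool SLX-11175, 0, 16.8 and 146 CPM in pool SLX-11179 and 1.20, 1.82 and 187 CPM in pool SLX-9703. Nts-low cells reached at most 16.5, 39.9 and 65.5 CPM in these pools. Thus 4 of the 9 Nts-high cells, at least 1 in each pool, lay above every Nts-low cell and the other 5 did not. The 2 cells with the most Nts, both in pool SLX-11175, had the most Adgrd1, while cell 16 of that pool, with 27217 CPM of Nts, had none and cell 82 of pool SLX-9703, with the least Nts of the 9, had 187 CPM (Spearman's rho with Nts 0.34 over the 9 cells).

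Adgrd1 was read in 7 of 9 Nts-high cells (77.8%, exact Clopper-Pearson 95% interval 39.99 to 97.2%) and in 14 of 47 Nts-low cells (29.8%, 17.3 to 44.9%). After each cell was thinned to 20000 reads, it was read in 4 of 9 (44.4%, 13.7 to 78.8%) and in 4 of 47 (8.51%, 2.37 to 20.4%), and in 0 of 3 cells with the leukocyte gene Ptprc and little Chga and Chgb (1 of 3 before thinning). These intervals cover counting error only. In the sums Adgrd1 was 538, 41.4 and 69.9 CPM against 2.54, 6.69 and 6.28 CPM, a log2 fold change of 4.11 (SE 0.78) that did not pass in edgeR (adjusted p = 0.206). It passed in 6 of 26 alternatives, DESeq2 among them (adjusted p = 5.17e-05), with adjusted p from 7.42e-06 without pool SLX-11179 to 1; leaving out cell 16 or 66 of pool SLX-11175 or cell 54 of pool SLX-11179 also brought it past the threshold. The direction was the same in all 26; without cell 41 of pool SLX-11179, without cell 82 of pool SLX-9703 and after thinning, Adgrd1 was too low to enter the test. A pseudogene, Rps16-ps2, lies within the gene on the other strand, and the counts do not keep strand.

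Serpina1e, an alpha-1-antitrypsin gene on the minus strand of chromosome 12 (103946931 to 103958975), showed no clear direction between the sides within the Pzp-positive cells. Nts-high cells had 0, 99.3 and 233 CPM, 0, 0 and 437 CPM, and 0.61, 3.59 and 179 CPM in the 3 pools. Nts-low cells ranged from 0 to 1546 CPM with a median of 0.42 CPM, against a median of 3.59 CPM over all Nts-high cells. The sides overlapped in every pool, and the sums were 123, 154 and 67.5 CPM against 178, 125 and 167 CPM (log2 fold change -0.52, SE 0.50, edgeR adjusted p = 0.999). Serpina1e was read in 6 of 9 and in 24 of 47 cells. Near-identical Serpina1 copies lie beside it, so its counts are uncertain.

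**Figure D4:**
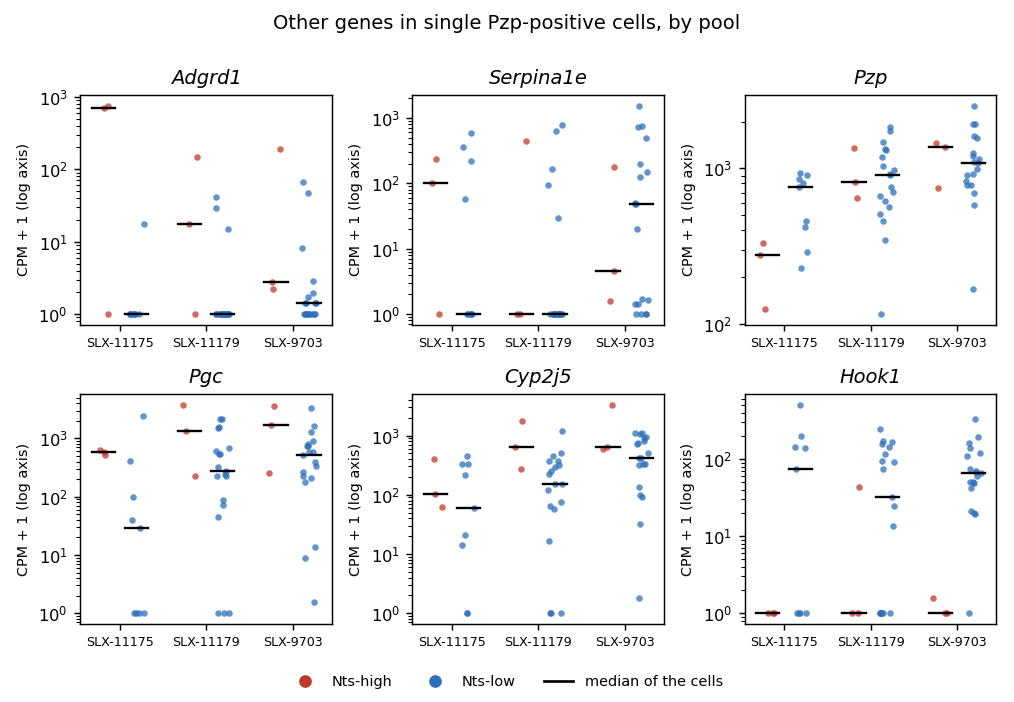
Levels (CPM + 1, log axis) of Adgrd1, Serpina1e, Pzp, Pgc, Cyp2j5 and Hook1 in single Nts-high (red) and Nts-low (blue) Pzp-positive cells of each pool; black bars are medians of the cells. Adgrd1 is above 100 CPM in 4 Nts-high cells, and Hook1 is at 0 in 7 of 9.

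Of 31 peptide hormone genes, Nts apart, 8 were tested. Of these 1, Gcg, fell, none rose, and the list's median log2 fold change was -1.33 against -0.24 for all genes. That median rests in part on weakly read genes: Ucn3 (-2.71, SE 1.61), Pyy (-2.05, SE 1.95) and Nucb2 (-1.53, SE 1.39) were read in 2, 4 and 3 of 9 Nts-high cells. Ghrl, Cck, Gip and Sct lay between -1.12 and -0.25. Cholecystokinin (Cck), which drives gall bladder contraction and satiety, was 76994, 85176 and 85279 CPM in the Nts-high sums and 271721, 101894 and 167864 CPM in the Nts-low sums (log2 fold change -1.02, SE 0.29, edgeR adjusted p = 0.945); it passed in 1 of 28 alternatives, with no filter on low counts (-1.08, adjusted p = 1.97e-83). The Nts-high sums lay close together and below each Nts-low sum. In single cells Cck ran from 10906 to 147475 CPM (median 83702) and from 4112 to 406634 CPM (median 127747), and the 2 cells with the most Nts had the least Cck of the 9.

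Ghrelin (Ghrl), an appetite-stimulating peptide, was 15034, 3359 and 7850 CPM against 18422, 14139 and 15692 CPM (log2 fold change -1.12, SE 0.31, edgeR adjusted p = 0.945). Single Nts-high cells had 408 to 20748 CPM (median 7011) and Nts-low cells 0 to 80196 CPM (median 5401), so the medians ran the other way from the sums. Without pool SLX-11175 it passed (log2 fold change -1.63, edgeR adjusted p = 0.000220). It also passed with Pzp at 500 CPM or more, but that limit leaves pool SLX-11175 out too, so these are not separate results. With no filter on low counts it passed as well, in a fit whose p-values are not taken as the spread between pools. Transcripts Gm26982 and Gm44033 overlap Ghrl on the other strand.

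Secretin (Sct), which stimulates pancreatic bicarbonate release, was 29470, 32270 and 26660 CPM against 51118, 18906 and 43001 CPM (log2 fold change -0.25, SE 0.30). Gip, the incretin of K cells (chromosome 11, plus strand, 96024545 to 96030831), was low on both sides, at 49.4, 68.01 and 21.3 CPM against 81.2, 40.1 and 55.3 CPM (-0.47, SE 0.80). Peptide YY (Pyy), a satiety peptide of L cells, had 13 reads in the Nts-high cells, in 4 of 9 of them, and was read in 18 of 47 Nts-low cells, with sums of 29.6, 0 and 1.12 CPM against 15.2, 9.20 and 11.02 CPM. None of these 3 passed (adjusted p = 0.999 each), and the sign of each turned in at least 1 alternative. Tachykinin 1 (Tac1), the substance P precursor, had no read in the 9 Nts-high cells and 576 reads in 8 of 47 Nts-low cells, and was not tested. Cell 91 of pool SLX-9703, the most deeply sequenced pool, gave 78.5% of these reads. In CPM the highest Tac1 level was 527 in a cell of pool SLX-11179, against at most 227 in pool SLX-9703. Somatostatin (Sst) had no read in any member.

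Tph1, the rate-limiting enzyme of serotonin synthesis in gut endocrine cells (chromosome 7, minus strand, 46644641 to 46672537), was 311, 503 and 1039 CPM against 150, 142 and 480 CPM, higher in 3 of 3 pools (log2 fold change 1.33, SE 0.35), but did not pass (edgeR adjusted p = 0.945). In single cells Tph1 was 0 to 1304 CPM (median 568) on the Nts-high side and 0 to 1295 CPM (median 117) on the Nts-low side. One Nts-high cell, cell 41 of pool SLX-11179, had no Tph1 read and had the most Gip of the 9. Of 17 genes for serotonin and catecholamine synthesis and loading 10 were tested and none passed (median log2 fold change -0.36). Ddc, which makes serotonin from its precursor, was 190 ± 54.7 against 361 ± 53.1 CPM (-0.95, SE 0.40, adjusted p = 0.999).

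Of 18 granin and prohormone-processing genes 16 were tested and none passed (median -0.49). Chromogranin B (Chgb), a core protein of secretory granules, was 1081, 1342 and 1993 CPM against 4258, 1368 and 3026 CPM (log2 fold change -0.86, SE 0.34, edgeR adjusted p = 0.999), lower in 3 of 3 pools. Chromogranin A (Chga) was 523, 133 and 132 CPM against 380, 99.5 and 333 CPM (-0.16, SE 0.44, adjusted p = 0.999), with a sign that turned in 5 of 28 alternatives. Secretogranin 2 (Scg2) was 4729 ± 3534 against 7066 ± 1086 CPM, and carboxypeptidase E (Cpe), which trims prohormone fragments, 2401 ± 311 against 3209 ± 1343 CPM.

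Of the 10 genes with the smallest p in the higher direction, all with a mean of 20 CPM or more and higher in 3 of 3 pools, none passed in edgeR. Those described are Adgrd1 and Tph1 above, and Pgc, Pdk3, Exo5, Ofd1, Fcgbp and Cyp2j5.

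Pgc, which encodes the stomach protease precursor progastricsin, was 691, 1747 and 1491 CPM against 332, 829 and 590 CPM (log2 fold change 1.16, SE 0.30, edgeR adjusted p = 0.945). It was read in all 9 Nts-high cells, at 221 to 3800 CPM, and in 40 of 47 Nts-low cells, at 0 to 3268 CPM. Pdk3, a kinase that holds back pyruvate dehydrogenase, was 324 ± 88.4 against 108 ± 58.4 CPM, and Cyp2j5, a cytochrome P450, 914 ± 657 against 331 ± 128 CPM. Exo5 and Ofd1 had 19 and 274 reads in the Nts-low cells and 269 and 449 in the Nts-high cells. Of the latter a single cell of pool SLX-9703, the most deeply sequenced, held 85.5% for Exo5 (cell 81) and 87.3% for Ofd1 (cell 82). In CPM other cells stood higher: Exo5 was 138 in cell 81 and 192 in cell 54 of pool SLX-11179. Ofd1 was 169 in cell 82 and 194 in cell 41 of pool SLX-11179. Each was read in 6 of 9 Nts-high cells, and in 3 (Exo5) and 8 (Ofd1) of 47 Nts-low cells. Ofd1 overlaps Trappc2 on the other strand.

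In the lower direction Gcg passed and the other 9 of the 10 did not: Hook1, Ghrl, Cps1, Idh2, Echdc2, Adipor1, Cck, Nr4a1 and Ptger3. Hook1, a linker of endosomes to microtubules, had 6 reads in the Nts-high cells, in 2 of 9 of them, and was read in 35 of 47 Nts-low cells. Its sums were 0, 14.8 and 0.16 CPM against 137, 76.1 and 80.5 CPM (log2 fold change -5.74, SE 1.37, edgeR adjusted p = 0.945), and it passed in 4 of 27 alternatives. Transcript 9530080O11Rik overlaps Hook1 on the other strand. Cps1, the first enzyme of the urea cycle, and Idh2, the mitochondrial NADP-dependent isocitrate dehydrogenase, were read in 4 and 3 of 9 Nts-high cells and in 29 and 34 of 47 Nts-low cells.

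The prostaglandin E receptor gene Ptger3 had 2 reads in the Nts-high cells and 1142 in 19 of 47 Nts-low cells. Adipor1, an adiponectin receptor, was 21.1 ± 18.4 against 116 ± 65.9 CPM. Echdc2, a mitochondrial enzyme gene, was 2.55 ± 2.47 against 60.3 ± 12.3 CPM, and the early-response factor Nr4a1 6.79 ± 7.46 against 87.7 ± 54.3 CPM. With 9 cells on 1 side, these low sums come from few cells.

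No member of the remaining lists passed in edgeR in either direction. Among endocrine and gut transcription factors 30 of 45 were tested (median log2 fold change -0.64); Neurod1 was 1064 ± 598 against 697 ± 173 CPM and Onecut3 322 ± 160 against 240 ± 61.9 CPM. Among nutrient and hormone receptors 19 of 41 were tested (median -0.27); Gucy2c, the guanylin receptor, was 164 ± 70.3 against 157 ± 42.2 CPM, and Ffar1, a long-chain fatty acid receptor, 112 ± 28.9 against 143 ± 58.8 CPM. DESeq2 called 1 receptor lower, Ptger3. Among adhesion G protein-coupled receptors 6 of 30 were tested (median 0.11); Adgrg4 was 639 ± 311 against 675 ± 133 CPM, while Adgrd1 is given above.

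Secreted proteins of the plasma and liver type, Pzp left out, had 16 of 43 members tested, with a median of -0.54. Rbp4, the retinol carrier, was 1581 ± 321 against 1947 ± 210 CPM, and Gpx3, a secreted glutathione peroxidase, 1210 ± 231 against 647 ± 427 CPM (log2 fold change 1.08, SE 0.37, edgeR adjusted p = 0.999). In this list DESeq2 called Pgc. Among regulators of G protein signalling (RGS) and cyclic nucleotide genes 19 of 37 were tested (median -0.10); Rgs2 was 1650 ± 762 against 1660 ± 346 CPM and Prkar1a 249 ± 121 against 288 ± 19.9 CPM. Of the Id and BMP signalling genes 12 of 25 were tested (median -0.29); Id2 was 550 ± 278 against 835 ± 59.8 CPM and Id3 354 ± 58.7 against 435 ± 89.5 CPM.

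Vesicle exocytosis genes had 26 of 38 tested and a median of 0.03; Snap25, a membrane fusion protein, was 273 ± 159 against 169 ± 57.1 CPM and Vamp3 202 ± 112 against 112.6 ± 19.3 CPM. Genes of translocation and folding in the endoplasmic reticulum had 30 of 33 tested and a median of -0.19; the disulfide isomerase Pdia3 was 572 ± 132 against 576 ± 54.3 CPM and the chaperone Hspa5 459 ± 150 against 507 ± 96.5 CPM. Immediate early and dissociation genes had 18 of 21 tested and a median of -0.21; Fos was 1412 ± 501 against 1313 ± 248 CPM and Btg2 591 ± 283 against 644 ± 115 CPM.

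Markers of other cell types were set beside these results. Enterocyte genes (25 measured, 16 tested, median -0.27) summed to 5592, 6198 and 7089 CPM in the Nts-high cells and 4488, 5045 and 7032 CPM in the Nts-low cells, before TMM scaling; Krt20 was 2766 ± 178 against 2247 ± 464 CPM and Sis 1597 ± 384 against 1668 ± 169 CPM. Goblet genes (11 measured, 3 tested, median 0.43) summed to 6428, 9550 and 12070.1 CPM against 8331, 9500 and 10903 CPM, carried by Tff3 (5977 ± 363 against 4461 ± 523 CPM) and Agr2 (2908 ± 1489 against 5435 ± 733 CPM), while the defining goblet gene Muc2 was read in 0 of 9 and 3 of 47 cells. Fcgbp, which binds the Fc part of IgG in mucus, was 433 ± 174 against 144 ± 54.6 CPM.

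Paneth genes summed to 0, 0 and 19.2 CPM against 66.5, 7.79 and 32.4 CPM, none of 10 tested; Lyz1 was read in 1 of 9 and 7 of 47 cells and Itln1 in 1 and 6. Tuft genes summed to 1.24 to 17.8 CPM against 21.8 to 33.6 CPM, with Avil the 1 gene tested (log2 fold change -4.90, SE 2.49) and Dclk1 read in 4 of 9 and 4 of 47 cells. Stem and cycling genes summed to 29.1 to 52.4 CPM against 53.99 to 533 CPM, the last from pool SLX-11179, where 1 cell had 5473 CPM; Axin2 was the 1 gene tested (-1.26, SE 1.303) and Olfm4 was read in 1 cell on each side. Stroma genes summed to 2.84 to 4.16 CPM against 4.70 to 18.7 CPM, none of 11 tested; Col1a2 was read in 3 of 9 and 20 of 47 cells and Vim in 0 and 14.

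Leukocyte genes summed to 116, 44.5 and 66.6 CPM in the Nts-high cells and 276, 447 and 55.6 CPM in the Nts-low cells, with 4 of 16 tested (median -1.76). Cd74, an antigen presentation gene, was 8.61 ± 10.1 against 100.7 ± 157 CPM, and the immunoglobulin light chain gene Igkc 20.4 ± 25.8 against 82.7 ± 95.8 CPM. The share of leukocyte reads was thus higher on the Nts-low side in pools SLX-11175 and SLX-11179 and not in pool SLX-9703; its part in the other results was not tested.

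The same contrast was made in Pzp-low endocrine cells, with Pzp under 100 CPM and Chga plus Chgb at 100 CPM or more, of which 19 were Nts-high and 113 Nts-low. The sums of the Nts-low side of this class were rich in Gcg (70960 to 73916 CPM) and Gip (47618 to 95573 CPM), unlike those of the Pzp-positive class, and the part of this makeup in the other differences was not tested. There 14 genes of 9192 were higher in Nts-high cells (0.152%) and 6 lower (0.0653%). Those higher were Adgrd1, Tph1, Uts2b, Prss30, Rassf9, Samd11, Nt5e, Lynx1, Tbx3, Pitx1, Gsdma, Tbx3os2, Serpina1e and Pgc. Those lower were Gip, Gcg, Cd177, Cd44, Lcmt1 and Fap. Without pool SLX-11175, 9 of these 20 passed, and Gcg, Serpina1e, Tbx3, Samd11, Nt5e, Lynx1, Gsdma, Fap, Lcmt1, Pitx1 and Rassf9 did not. The sides are of different size in the 2 classes, so a gene past the threshold in 1 class alone does not show a difference between them, and the difference was tested as an interaction of side and Pzp class with the pool as a block.

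Of 10056 genes, 3 differed between the classes (0.0298%): Gip, Tph1 and Tbx3. Gip was 8.37, 65.5 and 117 CPM in Nts-high against 60757, 95573 and 47618 CPM in Nts-low cells of the Pzp-low class (log2 fold change -10.34, SE 0.96, edgeR adjusted p = 0.000856), whereas every sum of the Pzp-positive class lay between 21.3 and 81.2 CPM. The log2 fold changes of Gip differed by 9.48 (SE 0.99, adjusted p = 0.000717), a difference that DESeq2 gave as 9.74 without passing (adjusted p = 0.111). Nts-low cells thus differed between the classes in Gip and Nts-high cells had little of it in both.

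Tph1 in the Pzp-low class was 162, 132 and 254 CPM in Nts-high cells and 0, 1.23 and 1.73 CPM in Nts-low cells (log2 fold change 7.44, SE 0.69, edgeR adjusted p = 0.000856). Its log2 fold change in Pzp-positive cells, where Nts-low cells carried 142 to 480 CPM, was lower by 6.27 (difference -6.27, SE 0.69, adjusted p = 0.000773). Without pool SLX-9703 this difference did not pass (-6.09, adjusted p = 0.0542).

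Tbx3, a T-box transcription factor (chromosome 5, plus strand, 119670669 to 119684724), was 207, 98.8 and 211 CPM in Nts-high against 26.9, 15.6 and 35.6 CPM in Nts-low cells of the Pzp-low class (log2 fold change 2.72, SE 0.43, edgeR adjusted p = 0.0278). In Pzp-positive cells it was 44.4, 29.6 and 25.4 CPM against 86.2, 80.3 and 93.2 CPM (-1.45, SE 0.70, adjusted p = 0.999), and the sums of the sides did not overlap in either class. The difference was -4.18 (SE 0.66, adjusted p = 0.0406), and it did not pass without any 1 of the 3 pools (differences of -4.28 to -4.04, adjusted p from 0.309 to 0.4929). Tbx3os1 overlaps Tbx3 on the other strand.

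Serpina1e was 427, 196 and 78.97 CPM in Nts-high against 12.6, 0 and 6.96 CPM in Nts-low cells of the Pzp-low class (log2 fold change 5.26, SE 0.89, edgeR adjusted p = 0.0432). Pgc there was 823, 377 and 150 CPM against 0, 17.6 and 6.58 CPM (5.61, SE 0.96, adjusted p = 0.0447). In the Pzp-positive class both genes were present on both sides, and the differences between classes, -5.56 (SE 1.07) for Serpina1e and -4.92 (SE 1.10) for Pgc, did not pass (adjusted p = 0.227 and 0.274).

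Adgrd1 in the Pzp-low class was 511, 893 and 300 CPM against 3.44, 7.78 and 9.85 CPM (log2 fold change 6.21, SE 0.56, edgeR adjusted p = 0.000856), and its difference between classes was -1.40 (SE 1.10, adjusted p = 0.932). Gcg there was 460, 736 and 2111 CPM against 70960, 73916 and 71164 CPM (-6.34, SE 0.71, adjusted p = 0.00311), and the difference between classes was 2.95 (SE 0.97, adjusted p = 0.472). For Adgrd1 and Gcg the direction was the same in both classes.

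Uts2b, a urotensin-related peptide gene, was 167, 43.3 and 82.8 CPM in Nts-high cells of the Pzp-low class and 0, 0.41 and 0.11 CPM in Nts-low cells (log2 fold change 9.17, SE 0.97, edgeR adjusted p = 0.00237). Among Pzp-positive cells it was read in 3 of 9 Nts-high cells, 1 in each pool, and in 6 of 47 Nts-low cells, too few to be tested there. Thinned to 20000 reads, these were 2 of 9 (22.2%, exact interval 2.81 to 60.01%) and 3 of 47 (6.38%, 1.34 to 17.5%). The intervals cover counting error only, and the difference between these shares was not tested. The difference of Uts2b between classes, -7.35 (SE 1.91), did not pass (edgeR adjusted p = 0.380).

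**Figure D5:**
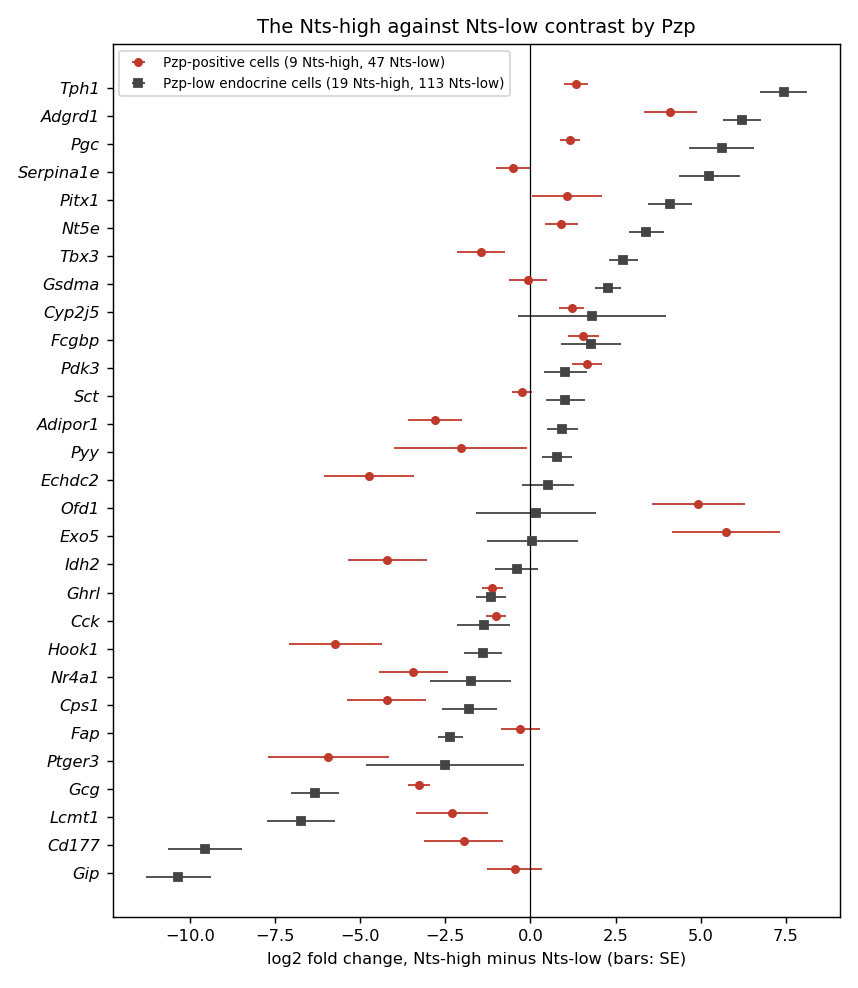
Log2 fold change (Nts-high minus Nts-low, edgeR, bars are SE) of the genes described that were tested in both classes, in Pzp-positive cells (red circles) and Pzp-low endocrine cells (grey squares). Gip, Tph1 and Tbx3 are the 3 genes whose difference between the classes passed; Adgrd1 is to the right and Gcg to the left of 0 in both.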

How the data were processed

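The deposited table held raw counts of reads per gene for each cell, made by the authors with GSNAP 2015-09-29 on mm10 and HTSeq 0.5.3p3, without unique molecular identifiers or strand. Full-length cDNA was made by Smart-seq2 with ERCC spike-ins. The labels name 3 mice of 20 to 21 weeks and 3 pools; each pool was taken as 1 mouse, and the pool was a block. In the pairing check, same-pool deviations from side means correlated at 0.06, 0.06 and 0.21 across 4943 genes, those of different pools at -0.10 to 0.03. Of the table's counts 77.6% lay on 5 lines that name no gene and 5.34% on 92 spike-ins; all were left out, as were 4 columns that match no sample. Symbols for 45143 of 46078 genes, and positions, come from GENCODE M21.

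Counts were summed per pool and side and tested with edgeR 4.0.16 (TMM, filterByExpr, glmQLFit, glmQLFTest; Benjamini-Hochberg threshold 0.05; R 4.3.3). Genes that chose the cells (Nts and Pzp, and Chga and Chgb where Pzp-low cells entered) were left out of the adjustment in every fit. The SE is the log2 fold change over the root of F. Alternatives were DESeq2 1.42.0, RLE factors, limma 3.58.1 on log2(mean or median CPM + 1), other limits, thinned cells, Nts reads removed, no block, and each pool or member cell left out in turn; leaving out a cell, the median and an adjustment that keeps the choosing genes were added after seeing the data. Cells were sorted to wells, and no doublet caller was run.

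Members and gene lists were chosen with earlier results of these data known. Named genes were Nts, Pzp, Adgrd1 and Serpina1e; up to 12 genes a direction past the threshold with a mean of 20 CPM or more and the same direction in each pool, or where fewer than 5 passed, the 10 with the smallest p; fixed hormone genes; and from each list those that passed and the 2 with the highest mean. Genes called in the Pzp-low comparison are named with it. Some genes that this rule names are not reported here. Depth is given per side in the report.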

Additional observations from a re-analysis of the deposited data

Results flagged for a closer look

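Gip in cell 41 of pool SLX-11179 was 267 CPM, far from the other Nts-high cells, whose median with it was 22.5 CPM. Chgb in cell 82 of pool SLX-9703 was 3084 CPM against a median of 1370 CPM over the 9 cells. Each stood apart by Dixon's gap test, which was applied to 11 genes over the 9 cells and by chance marks about 1 group in 20 where values are independent and normally distributed. The cells share 3 pools of unequal depth, and the Gip value rests on 22 reads.

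Gip, Tph1 and Tbx3 had log2 fold changes that differed between Pzp-positive and Pzp-low cells by 9.48, -6.27 and -4.18, each by the interaction test; the alternatives under which Gip, Tph1 or Tbx3 did not pass are given with the test and under processing.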

How the results depend on the processing

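In Pzp-positive cells the counts of genes higher and lower were 0 and 1. They were 6 and 9 with DESeq2 and 2 and 7 with no filter on low counts. The p-values of fits with no filter are not taken as the spread between pools, for the reason given with Cck. The number lower was 0 with no replicate block (the pool pairing ignored), 0 with cells of 50000 reads, 0 with the median cell and 6 with Pzp at 500 CPM. The limit of 50000 reads leaves out Nts-low cell 10 of pool SLX-11175. Pzp at 500 CPM leaves no Nts-high cell in pool SLX-11175, so that pool is absent from the fit. Leaving out 1 pool gave 0 to 1 higher and 1 to 5 lower, 1 Nts-high cell 0 to 1 and 0 to 2, and 1 Nts-low cell 0 and 0 to 1; the number lower was 0 without Nts-high cell 82 of pool SLX-9703 and without Nts-low cell 10 of pool SLX-11175. Without pool SLX-11175 the 5 lower genes were Gcg, Alad, Cd74, Ghrl and Olfm4. Of these, Olfm4 was read in very few cells, and Cd74 is a leukocyte gene, a list whose Nts-low level differed between pools. Without pool SLX-11179 Adgrd1 was higher and Gcg, Hook1 and Atf3 were lower. Hook1 also passed without cell 38, and Atf3 without cell 41, of pool SLX-11179, and Adgrd1 without cell 54 of that pool or cell 16 or 66 of pool SLX-11175. All other alternatives kept 0 and 1, with Gcg the gene. The limit of 50000 CPM for Nts-high left both sides in 1 pool and could not be fitted.

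In Pzp-low cells the counts, 14 and 6, became 76 and 74 with DESeq2, 30 and 32 with no filter, and 6 to 40 and 6 to 25 over the fits that leave out 1 pool (6 higher without SLX-11175, 23 without SLX-11179 and 40 without SLX-9703); with no replicate block they were 9 and 5, and 13 of the 20 genes still passed, without Tbx3, Serpina1e, Pgc, Lynx1, Gsdma, Fap and Pitx1. Without pool SLX-9703 Tbx3os2, and with DESeq2 Pgc, did not pass. For the difference, 1 and 2 became 29 and 50 with DESeq2, 12 and 32 with no filter, and 1 and 1 with RLE factors, where Tbx3 was lost (adjusted p = 0.0649); leaving out 1 pool gave 1 higher and 0 to 1 lower. The cause of these moves was not tested.

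Signs that turned, none of them in a called value, were Chga with 50000 reads (0.022), with the mean cell (0.18), with the median cell (0.60) and without pool SLX-9703 or cell 82 of it (range over left-out pools and cells -0.58 to 0.44); Sct with Nts-high from 5000 CPM (0.052), with the mean cell (0.016), with the median cell (0.089) and without cell 82 of pool SLX-9703 (range -0.83 to 0.072); Gip with the median cell (0.026) and without pool SLX-9703 (range -1.63 to 0.048); and, with the median cell, Serpina1e (1.09), Ghrl (0.18) and Pyy (1.82). With the median cell the median over all genes was itself 0.82, against -0.24 in the sums, -0.44 with the mean cell, -1.22 with no filter and -0.06 after thinning. Of 775 gene values under alternatives, 14 turned sign, 11 lost and 23 gained the call, and 727 kept both. Keeping the genes that chose the cells in the adjustment left the counts of all 3 comparisons as they were (Gcg adjusted p = 5.36e-05, Adgrd1 adjusted p = 0.137 by edgeR).

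Depth differs between pools, from 22337 reads in the shallowest member to 3733809 in the deepest, and 9 Nts-high cells limit the comparison among Pzp-positive cells and that between the classes; low genes are read in few of them. A gene that did not pass is not shown to be alike on both sides.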

Other observations

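Rassf9 and Fap, called in the Pzp-low class, lie next to Nts and Gcg. On chromosome 10, Rassf9 (plus strand) is 21735 bases from Nts (minus strand) with no annotated gene between, and was 80.9, 37.7 and 49.9 CPM in Nts-high against 0.57, 0.41 and 0.05 CPM in Nts-low cells (log2 fold change 8.32, SE 1.17, edgeR adjusted p = 0.0178). On chromosome 2, Fap is 17292 bases from Gcg on the same strand with no annotated gene between, and was 117, 114 and 86.3 CPM against 802, 459 and 423 CPM (-2.35, SE 0.36, adjusted p = 0.0239); the calls of Fap and Rassf9 were lost without pool SLX-11175, and that of Fap with no pool block. In Pzp-positive cells Fap was 29.6, 82.8 and 203 CPM against 68.5, 139 and 116 CPM (log2 fold change -0.30, SE 0.57, edgeR adjusted p = 0.999), higher in 1 pool and lower in 2, and the difference between classes was 2.44 (SE 0.77, adjusted p = 0.467). Among Pzp-positive cells Rassf9 was read in 4 of 9 Nts-high and 4 of 47 Nts-low cells and was not tested there. Its difference between classes, -3.73 (SE 2.29), did not pass (edgeR adjusted p = 0.864). These pairs were picked after their values were seen, and how often neighbours move together was not tested.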
